A study of Homo sapiens with 3 samples.

Results

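RBPJ and L3MBTL3 peaks were examined around 9 genes whose proteins mature, cleave or degrade the Notch receptor: LFNG, MFNG, RFNG and POFUT1 (glycosylation), ADAM10, ADAM17, PSENEN and NCSTN (proteolysis) and FBXW7 (degradation). They are 9 of 19756 protein-coding genes with an annotated transcription start site (TSS) on the autosomes and X. Every peak whose summit lay within 50 kb of a TSS of 1 of these genes was taken, which gave 10 of 2926 RBPJ peaks and 2 of 444 L3MBTL3 peaks. The peaks come from chromatin immunoprecipitation and sequencing in MDA-MB-231 cells grown in serum-containing medium, a human breast cancer line of mesenchymal type without hormone receptors, with 1 library for an antibody against RBPJ (also called CBF1 or CSL), 1 for an antibody against L3MBTL3 (a methyl-lysine reader with MBT domains) and 1 of input DNA, which was not analysed here. The labels give a depth of 30 to 40 M (megareads) of aligned reads. With 1 library per antibody no replicate error can be given, and with no read counts in the peak lists the precision of a single fold is unknown, so the values below describe these libraries and carry no test.

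Notch is a receptor that is sugar-modified in the secretory pathway, cut at the cell surface when a neighbouring cell presents a ligand, cut again within the membrane, and destroyed after its intracellular domain has acted in the nucleus. POFUT1 adds O-fucose to the receptor, and the Fringe enzymes LFNG, MFNG and RFNG extend that fucose with N-acetylglucosamine, which changes the response to Delta and Jagged ligands. ADAM10 and ADAM17 are metalloproteases that shed the ectodomain, and gamma-secretase, of which NCSTN (nicastrin) and PSENEN (PEN-2) are subunits, releases the intracellular domain. That domain binds RBPJ, the DNA-binding factor of the pathway, which recruits corepressors in its absence. FBXW7 is the substrate receptor of an SCF ubiquitin ligase that marks the phosphorylated intracellular domain for degradation.

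Of the 10 RBPJ summits, 5 lay within 1 kb of a TSS of LFNG, POFUT1, ADAM17 or FBXW7, and the reference sequence there is shown because none of it held the RBPJ core word TGGGAA on either strand. The sequences are hg19, on the sense strand of the gene, with the GC box GGGCGG (or its reverse complement) in capitals. The LFNG (chr7:2559013-2559133, plus strand) and ADAM17 (chr2:9696023-9696143, minus strand) stretches are centred on the summit, and that of FBXW7 (chr4:153457270-153457532, minus strand) spans both of its summits. For POFUT1 the 111 bases between annotated exons of POFUT1 and of its divergent neighbour PLAGL2 are given (chr20:30795547-30795657, plus strand), just upstream of the summit.
LFNG: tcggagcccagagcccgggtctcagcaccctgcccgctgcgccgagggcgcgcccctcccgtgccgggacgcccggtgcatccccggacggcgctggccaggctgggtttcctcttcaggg
POFUT1: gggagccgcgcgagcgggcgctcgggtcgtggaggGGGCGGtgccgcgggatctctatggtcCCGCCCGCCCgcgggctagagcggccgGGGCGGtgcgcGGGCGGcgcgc
ADAM17: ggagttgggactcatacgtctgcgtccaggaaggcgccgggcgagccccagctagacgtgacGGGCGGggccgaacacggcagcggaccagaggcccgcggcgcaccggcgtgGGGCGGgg
FBXW7: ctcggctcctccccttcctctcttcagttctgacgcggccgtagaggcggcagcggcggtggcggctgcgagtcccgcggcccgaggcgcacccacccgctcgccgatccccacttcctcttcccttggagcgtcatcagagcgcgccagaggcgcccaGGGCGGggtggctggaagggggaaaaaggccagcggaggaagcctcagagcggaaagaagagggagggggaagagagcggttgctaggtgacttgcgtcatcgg

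The high-affinity RBPJ words CGTGGGAA and TGTGGGAA did occur within 1 kb of a TSS of 3 of the genes, and these are shown. No RBPJ summit lay within 100 bp of any of these words, which is the usual case. Of 92260 such words within 50 kb of a TSS, 0.231% had one, so its absence does not set the 3 genes apart. Each stretch of 30 bases has the word in capitals and is written on the strand that reads it. They lie at chr7:2558543-2558572 (plus strand, LFNG intron), chr15:59041158-59041187 (minus strand, ADAM10 coding exon), chr1:160313396-160313425 (minus strand, NCSTN intron) and chr1:160313539-160313568 (minus strand, NCSTN coding exon).
LFNG: gggcccgggccCGTGGGAAgggccggggat
ADAM10: ccgcgcagactCGTGGGAAgttgtgttgtt
NCSTN, intron: ggaacttctgtCGTGGGAAcgaaaaagaaa
NCSTN, exon: gtggctggggtTGTGGGAAaaacgagacat

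An RBPJ summit lay within 50 kb of a TSS of 6 of the 9 genes (66.7%), where 21.8% of all protein-coding genes had one. Within 10 kb there were 5 of 9 genes (55.6%), against 11.3% of all genes. Within 1 kb there were 4 of 9 (44.4%), against 8.90% of all genes and 12.5% of the 13836 genes with a CpG-rich TSS. CpG-rich means that the 1001 bp centred on a TSS held more than 0.6 of the CpG count its C and G content predicts. All the genes but MFNG had such a TSS (8 of 9, against 70.0% of all genes). At least 2 RBPJ summits within 50 kb were found for RFNG, PSENEN and FBXW7 (3 of 9, against 7.83% of all genes). MFNG, ADAM10 and NCSTN had no RBPJ summit within 50 kb. By function, an RBPJ summit lay within 1 kb of 2 of 4 glycosylation genes, 1 of 4 protease genes and the 1 degradation gene, numbers too small to tell the classes apart. The gene set was proposed after earlier results of these data were known, in which several of these genes already showed peaks, so the shares are a description.

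**Figure D1:**
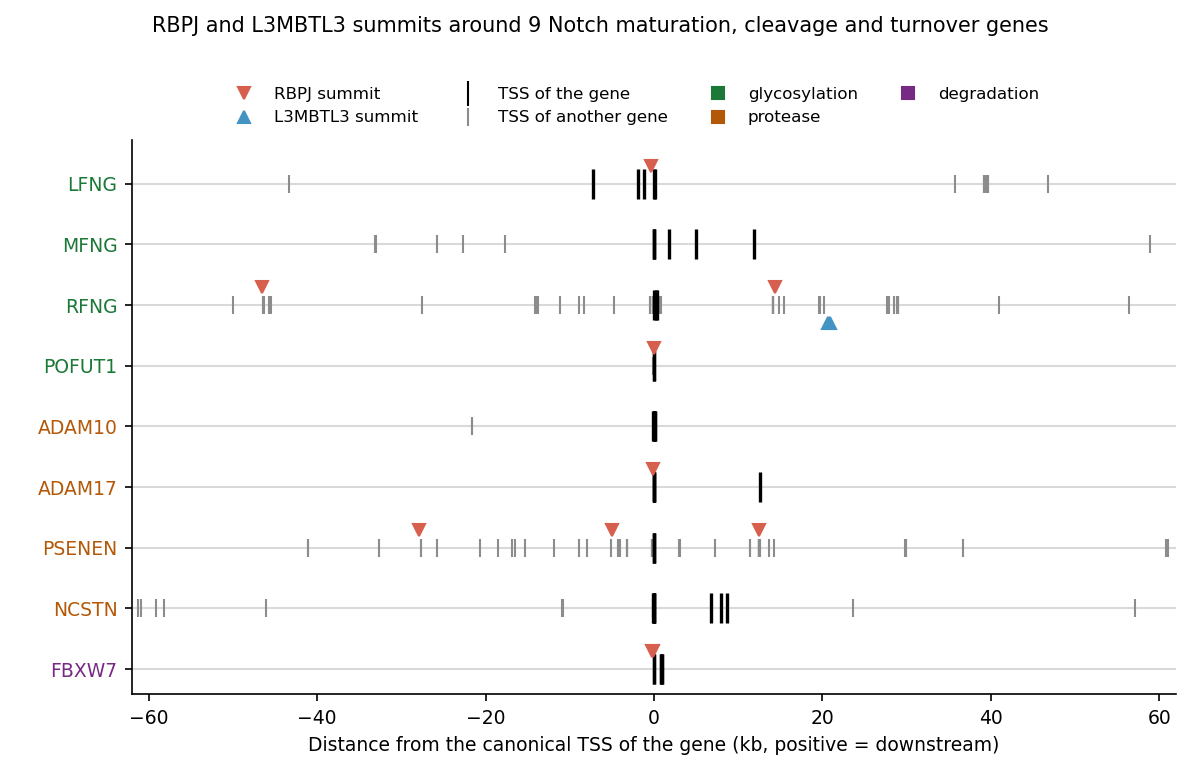
Position of RBPJ summits (red, pointing down) and L3MBTL3 summits (blue, pointing up) against the canonical TSS of each gene, in kb, with the other TSS of the gene as long black marks and TSS of other protein-coding genes as short grey marks. LFNG, POFUT1, ADAM17 and FBXW7 have RBPJ summits at their own TSS (the 2 of FBXW7 coincide at this scale), the summits of RFNG and PSENEN lie at TSS of other genes, and MFNG, ADAM10 and NCSTN have none; FBXW7 starts beyond the plotted range are not drawn.

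**Figure D2:**
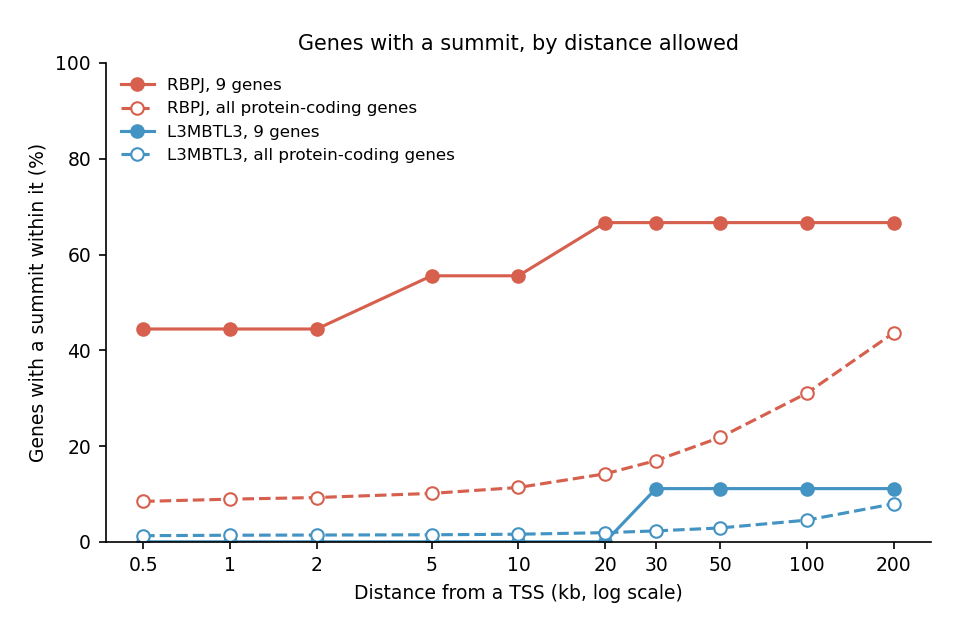
Percent of genes with a summit within a given distance of a TSS (kb, log scale), for the 9 genes (filled points) and all 19756 protein-coding genes (open points), for RBPJ and L3MBTL3. RBPJ goes from 44.4% of the 9 genes at 1 kb to 66.7% at 20 kb and stays there to 200 kb, while the share of all genes goes from 8.90% to 43.6% over the same range.

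Among the glycosylation genes, POFUT1 had its RBPJ summit closest to a TSS. The protein-coding TSS of POFUT1 (chr20:30795658-30826461) lay 18 bp (canonical transcript) and 5 bp (second transcript) upstream of the summit at 30795701. The summit is in a UTR of POFUT1. The peak spans chr20:30795663-30795717, is 55 bp wide, the smallest width in the list, and had a fold enrichment over local background of 4.41 with a -log10 q of 3.51. The TSS of PLAGL2, a zinc finger transcription factor gene read in the opposite direction, lay 155 bp from the same summit, so this promoter is shared by both genes and the peak cannot be assigned to 1 of them. The 201 bp around the summit held 5 GC boxes, the most of the 10 RBPJ windows.

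LFNG (chr7:2552163-2568811) had 1 RBPJ peak, at chr7:2559006-2559073. Its summit, the last base of the peak, lay 335 bp upstream of the canonical TSS and inside an intron of 3 transcripts that start 885 to 6910 bp further upstream. The fold was 3.62 and the -log10 q 1.56, and 3.25% of RBPJ peaks had a lower fold. No other gene had a TSS nearer than BRAT1, 36085 bp away. A high-affinity word lay 516 bp upstream of the summit, at 2558554 to 2558561, 369 bp downstream of the start of the transcript LFNG-202. It is the word closest to any of the 10 RBPJ summits.

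RFNG (chr17:80005778-80009707) had 2 RBPJ summits within 50 kb, neither of them nearest to RFNG. One, at chr17:79995231-79995311, lay 14003 bp from RFNG and 246 bp downstream of the TSS of DCXR, a carbonyl reductase gene, with a fold of 3.81 and a -log10 q of 2.03. The other, at chr17:80056092-80056267, lay 46.5 kb from RFNG and 51 bp upstream of the TSS of FASN, which encodes fatty acid synthase, with a fold of 5.39 and a -log10 q of 3.76. TSS of 5 and 4 other genes, respectively, lay closer to these summits than RFNG did. MFNG (chr22:37865101-37882431) had its nearest RBPJ summit 419 kb away, at MICALL1. Its 6 TSS had CpG ratios of 0.176 to 0.419, and it was the 1 gene of the 9 with no CpG-rich TSS.

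Of the proteases that shed the Notch ectodomain, ADAM17 had an RBPJ peak at its TSS and ADAM10 had none within 1862 kb. The ADAM17 gene (chr2:9628615-9696861, minus strand) has 4 TSS within 64 bp of each other and 1 that lies 12.7 kb from the summit. The peak at chr2:9696082-9696188 had its summit at its second base, 106 bp upstream of the nearest TSS and 124 bp upstream of the canonical one. There it overlaps an ADAM17 transcript without coding sequence and a long non-coding RNA. Its fold of 3.35 and -log10 q of 1.44 are close to the lower end of the list, in which 1.23% of peaks had a lower fold and the smallest -log10 q was 1.31. No other protein-coding gene had a TSS within 50 kb of those of ADAM17. ADAM10 (chr15:58881008-59041990, minus strand) has 6 TSS within 180 bp, all CpG-rich (ratios 0.865 to 0.893), and a high-affinity word 621 bp downstream of the nearest of them.

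Of the gamma-secretase genes, PSENEN had RBPJ summits in its neighbourhood and NCSTN had none. PSENEN (chr19:36236501-36238420) had 3 RBPJ summits within 50 kb, a number reached by 2.95% of all genes, and each lay at another gene's TSS. The first, at chr19:36208544-36208689, lay 27.9 kb upstream of PSENEN and 283 bp upstream of KMT2B, a histone H3 lysine 4 methyltransferase gene, with a fold of 6.11 and a -log10 q of 5.58. The second, at chr19:36231609-36231730, lay 4.88 kb upstream of PSENEN and 167 bp upstream of a TSS of IGFLR1, a receptor gene, with a fold of 5.08 and a -log10 q of 3.68. The third, at chr19:36248982-36249036, lay 12.4 kb downstream, between the divergent genes HSPB6 (a small heat shock protein, 5 bp) and PROSER3 (59 bp), with a fold of 4.70 and a -log10 q of 2.24. PSENEN and RFNG both had 8 other protein-coding genes with a TSS within 50 kb, and of the 1160 genes with 7 or more such neighbours 46.5% had an RBPJ summit within 50 kb, against 30.8% of genes with 3 to 6 and 16.1% of genes with 0 to 2 neighbours. NCSTN (chr1:160313084-160328742) had no RBPJ summit nearer than 419 kb, at TAGLN2. Its first 5 TSS, within 75 bp, were CpG-rich, and 2 high-affinity words lay 229 and 372 bp downstream of a TSS. Of all genes with a CpG-rich TSS, 12.5% had an RBPJ summit within 1 kb. Of high-affinity words within 50 kb of a TSS, 0.231% had an RBPJ summit within 100 bp.

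FBXW7 (chr4:153241696-153457244, minus strand) had 2 RBPJ peaks at its most upstream start, where the canonical transcript begins. Both summits lay upstream of it. The peak at chr4:153457232-153457359 spans this TSS and has its summit 86 bp upstream, and the peak at chr4:153457429-153457513 has its summit 228 bp upstream. The folds were 4.58 and 6.30, and the -log10 q 2.41 and 5.30. The summits were 142 bp apart and 69 bp separated the peaks, so they may count as 1 region. The summit at 228 bp lies inside MIR4453HG, a long non-coding RNA gene, and the nearest TSS of another protein-coding gene, that of TMEM154, was 107 kb away. Of the 10 protein-coding TSS of FBXW7, the 6 CpG-rich ones lay 86 to 1033 bp from an RBPJ summit. The other 4 TSS, whose CpG ratios were 0.153 to 0.369, lay 124 to 183 kb from one.

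The RBPJ folds of the 10 peaks ran from 3.35 (ADAM17) to 6.30 (FBXW7), with a median of 4.64, where the whole list had a median of 5.08 (quartiles 4.53 and 5.78) and RBPJ peaks within 1 kb of a TSS one of 5.08. The 5 peaks at the genes' own TSS had a median fold of 4.41, and the 5 at other genes' TSS one of 5.08. Of the former only the FBXW7 peak at 228 bp was above the list median, and of the latter those at KMT2B and FASN were. Both groups are small, the FBXW7 peaks may be 1 region, and the POFUT1 peak could equally be counted with PLAGL2. The difference between the medians was not tested. The stronger FBXW7 peak ranked 400 of 2926 and that at KMT2B 481. A -log10 q of at least 5 was reached by these same 2 peaks (2 of 10), a share close to the 21.9% of all RBPJ peaks. All 10 summits lay within 1 kb of some protein-coding TSS, as did 64.1% of the list.

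**Figure D3:**
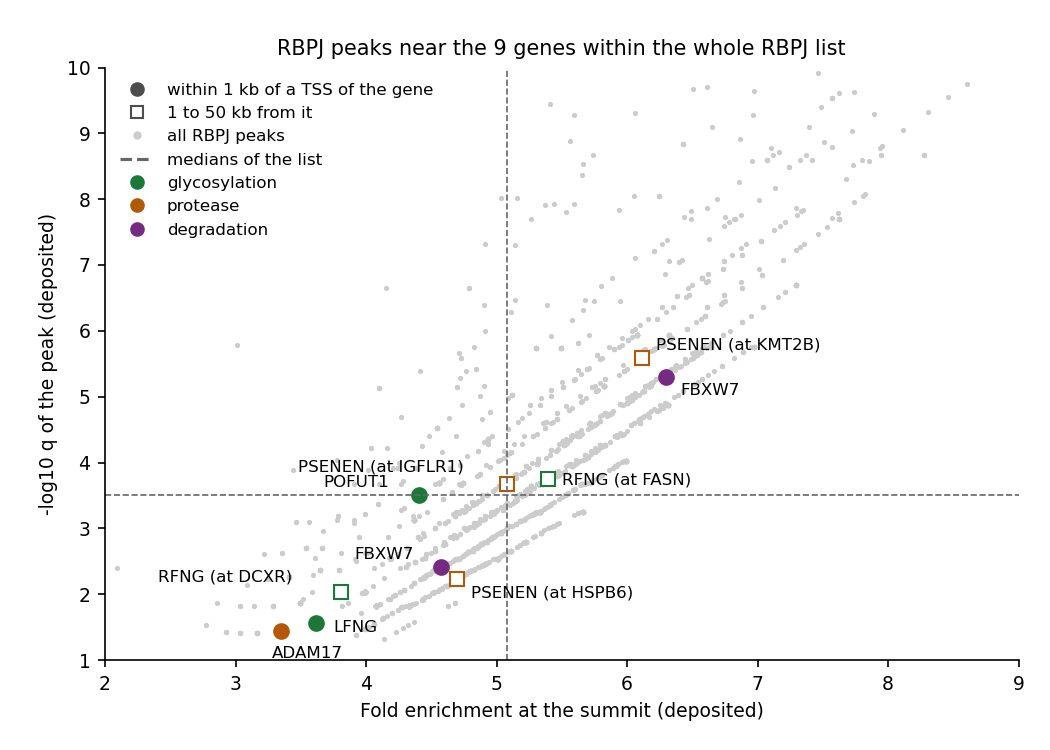
Deposited fold enrichment against deposited -log10 q for RBPJ peaks (grey, axes limited to the range of most peaks), with the 10 peaks near the 9 genes coloured by function; filled circles lie within 1 kb of a TSS of the gene and open squares lie 1 to 50 kb from it, labelled with the gene they are nearest to. Dashed lines are the list medians (5.08 and 3.51); ADAM17 and LFNG sit at the lower left, and FBXW7 at 6.30 and the KMT2B peak at 6.11 are the 2 highest.

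L3MBTL3 summits lay within 50 kb of 1 of the 9 genes, RFNG, where 2.89% of all genes had one, and within 10 kb of none, where 1.58% had one. With 9 genes, a count of 1 is too small to be read against these shares. Both peaks lay upstream of RAC3 and within a UTR of LRRC45. Their summits were 220 bp apart and 175 bp separated the peaks, so they may count as 1 region. The first, at chr17:79988712-79988803, had a fold of 4.46 and a -log10 q of 1.57, with its summit 760 bp from the RAC3 TSS and 20.5 kb from RFNG. The second, at chr17:79988979-79989037, had a fold of 6.37 and a -log10 q of 5.27, with its summit 540 bp from that TSS and 20.3 kb from RFNG. The nearest RBPJ summit, that at DCXR, was 6293 bp from the second. None of the 10 RBPJ peaks overlapped an L3MBTL3 peak, against 4.37% of all RBPJ peaks, and none had an L3MBTL3 summit within 1 kb. For the genes with an RBPJ peak at their own TSS, the nearest L3MBTL3 summits were 336 kb (ADAM17), 377 kb (POFUT1), 402 kb (FBXW7) and 781 kb (LFNG) away. The L3MBTL3 list is shorter, and absence from it is not absence of the protein.

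None of the 10 RBPJ windows of 201 bp centred on the summit held CGTGGGAA or TGTGGGAA, which 8.51% of all RBPJ windows and 5.60% of those within 1 kb of a TSS held. None held the core TGGGAA, a part of both of those words, against 29.5% of all RBPJ windows, 21.5% of those within 1 kb of a TSS and 14.8% of windows centred on any protein-coding TSS. At 250 bp to each side the core was present at 4 of the 10 summits, those of LFNG, ADAM17, KMT2B and HSPB6, against 47.6% of all RBPJ peaks. With at most 1 mismatch, a high-affinity word was found in 3 of 10 windows (at FASN, POFUT1 and IGFLR1). The share was 43.0% of all RBPJ windows and 35.5% of those within 1 kb of a TSS. The windows were rich in G and C, with a GC content of 63.7 to 78.6% and a median of 74.9%, where RBPJ peaks within 1 kb of a TSS had a median of 71.6% and the whole list 68.7%. The GC box GGGCGG was in 8 of 10 windows, a share close to the 75.1% of RBPJ windows within 1 kb of a TSS and above the 43.5% of TSS windows, and the 2 without it were those of LFNG and KMT2B. Of the other words searched, the ETS core CCGGAA was in 1 window (KMT2B) and CCAAT in 2 (FASN and HSPB6). The AP-1 words TGACTCA and TGAGTCA, the TEAD word GGAATG, the E-box CACGTG and the CRE word TGACGTCA were in none. Among RBPJ windows within 1 kb of a TSS, 19.8% held the ETS core and 20.7% CCAAT. The shares there were 3.78% for AP-1, 7.46% for TEAD, 7.73% for the E-box and 2.03% for CRE. With 10 windows, these counts are too small to be read against such shares. All words were sought on both strands, and a word missing from a window says nothing about the factor.

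Within 50 kb of their TSS the 9 genes had 76 high-affinity words, and none had an RBPJ summit within 100 bp, where 0.231% of the 92260 such words near protein-coding genes had one. Within 1 kb of a TSS there were 4 words at 3 genes, a share of 3 of 9 against 24.9% of all genes. Of the 3, LFNG had an RBPJ peak, and ADAM10 and NCSTN did not. POFUT1 and FBXW7, both with RBPJ peaks at the TSS, had their nearest words 1090 and 1247 bp from a TSS.

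**Figure D4:**
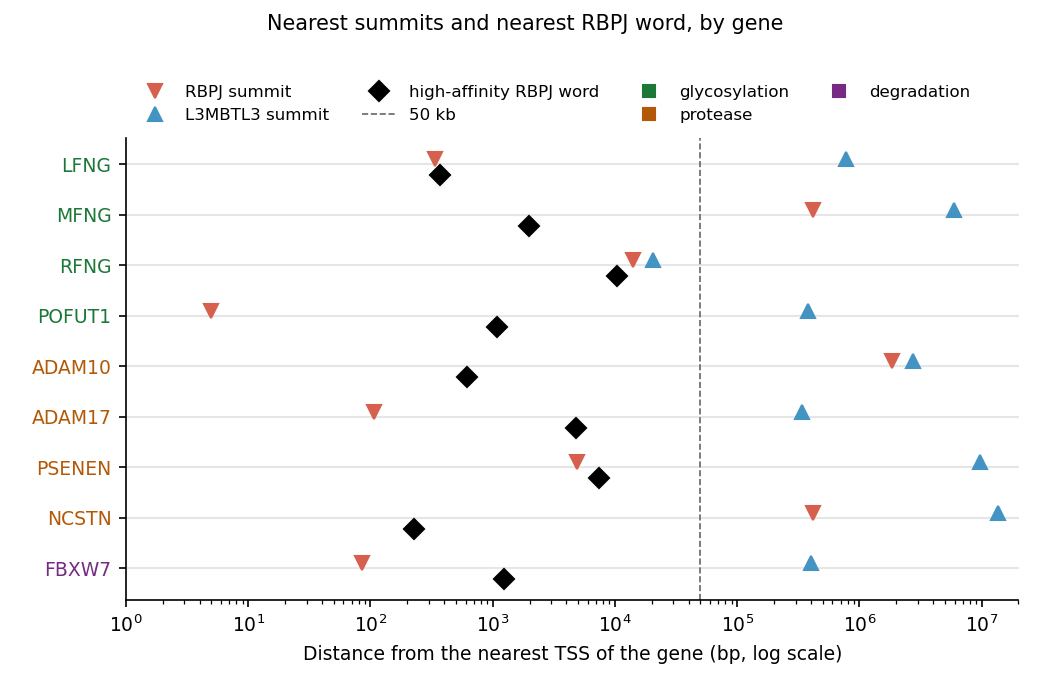
Distance from the nearest TSS of each gene (bp, log scale) to the nearest RBPJ summit, L3MBTL3 summit and high-affinity RBPJ word, with a dashed line at 50 kb. Every gene has a word within the line (229 bp at NCSTN to 10404 bp at RFNG), 6 genes have an RBPJ summit within it and 1 gene, RFNG, has an L3MBTL3 summit within it.

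A wider list of 51 genes of the same steps was searched in the same way. RBPJ summits lay within 1 kb of 8 of them (15.7%, against 8.90% of all genes). Among them were B4GALT1, GFUS and ATP2A2, listed under glycosylation and furin processing, TSPAN17 under cleavage, and CBL, CUL1 and CDK8 under turnover. Within 50 kb there were 17 (33.3%, against 21.8%). GFUS, an enzyme of GDP-fucose synthesis and so upstream of POFUT1, had 3 RBPJ summits within 1 kb with folds up to 5.47. An L3MBTL3 peak with a fold of 5.39, 146 bp from a GFUS TSS, overlapped an RBPJ peak other than that of fold 5.47. L3MBTL3 summits lay within 1 kb of 3 of the 51 genes (5.88%, against 1.37%), a count too small to be read against that share. The genes besides GFUS were TSPAN5 (fold 4.66, 10 bp from a TSS), a tetraspanin that associates with ADAM10, and NEDD4 (6.43, 78 bp), a ubiquitin ligase. Both lacked an RBPJ summit within 50 kb. This list too was chosen with earlier results of these data known, so its shares are a description.

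The genes of this list most like FBXW7, the gene of the 9 with the highest RBPJ fold within 10 kb, were CUL1, CDK8 and CBL. Likeness was the sum of absolute differences in log2 highest RBPJ fold within 10 kb, log10 distance to the nearest RBPJ summit and log10 distance to the nearest L3MBTL3 summit, over the 8 genes with an RBPJ fold to compare, and came to 0.924, 1.48 and 1.89. CUL1, the cullin of the SCF ligase, had 2 RBPJ summits within 1 kb, as FBXW7 did, with a highest fold of 5.80 and a -log10 q of 4.64. CDK8, a Mediator kinase that phosphorylates the Notch intracellular domain, had 1, 226 bp from a TSS, with a fold of 6.32 and a -log10 q of 4.88. CBL, a ubiquitin ligase, had 2 within 1 kb, with a highest fold of 5.83 and a -log10 q of 5.16. Of these the windows at the strongest CUL1 and CDK8 summits held the core TGGGAA, and that of CBL did not. Of RBPJ windows within 1 kb of a TSS, 21.5% held it. Elsewhere in the wider list, the window at the strongest TSPAN17 summit held it, and those of B4GALT1, GFUS and ATP2A2 did not.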

How the data were processed

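Per the labels' protocols, sonicated chromatin of MDA-MB-231 cells was precipitated, sequenced for 50 cycles from one end, and the reads were trimmed of adaptors (Trimmomatic) and mapped to hg19 (BWA 0.7.15). The submitters' processing notes name MACS2 as the peak caller. No version, cutoff or control for it is given in the sources used here. The deposited lists give for each peak the fold enrichment (a ratio over local background), the -log10 p and -log10 q, and a score that equals the -log10 q times 10, truncated. The largest q in the deposited lists was 0.0487 (RBPJ) and 0.0498 (L3MBTL3). A deposited fold was ranked within its own list.

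Coordinates are 1-based. Sequence came from GRCh37 and TSS from GENCODE 44 lifted to it (78394 TSS of protein-coding transcripts). Python 3.11.15 with pysam 0.24.0 was used, and the word and distance searches were tested on simulated data. Peaks overlapping by at least 1 bp were called shared. The genes, the wider list and the words were chosen with earlier results of these data known. Genes named are the 9 genes, those whose TSS is nearest to a summit or within 1 kb of it, members of the wider list with a summit within 10 kb, and the 3 most like FBXW7. A named result of the wider list is not reported here.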

Additional observations from a re-analysis of the deposited data

How the results depend on the processing

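At a -log10 q of at least 5, 2 of the 9 genes had an RBPJ summit within 50 kb (FBXW7 and PSENEN), with 2 summits, 1 of them nearest to its own gene, and 1 L3MBTL3 summit was left. With folds at or above the list median there were 3 genes, 4 RBPJ summits, 1 of them nearest to its own gene, and 1 L3MBTL3 summit. A limit of 10 kb left 6 RBPJ summits and 0 L3MBTL3 summits at 0 genes, and 1 kb left 5 and 0 at 0 genes. These are fewer by construction, since each limit removes peaks. The shares of all genes at the q and fold limits were not computed, so those gene counts cannot be read against a share. A window of 250 bp to each side had the core word at 4 of 10 summits instead of 0. TSS of all transcripts, or the nearest base of the peak in place of the summit, gave the same counts of genes and summits. The counts of shared peaks and of peaks with a high-affinity word were 0 under every alternative run. The ranks of the folds have no alternative. No paired analysis was possible because each antibody has 1 library. Fold differences between single peaks have no error estimate at this depth, and a peak below the calling cutoff is not seen.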
